A study of Saccharomyces cerevisiae with 8 samples.

Results

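Heating changes the yeast transcriptome, and losing a replication enzyme changes it too. The question here is which genes of RAD27 knockout cells met 37 °C with a response other than the one that wild type cells gave. That quantity, the genotype by temperature interaction, is the log2 change with heating in the knockout minus the log2 change with heating in wild type. It draws on every library of the series, 8 of 8, in 4 groups of 2: RAD27 knockout kept for 4 hours at 37 °C, RAD27 knockout at 30 °C, wild type at 37 °C and wild type at 30 °C. All cultures were Saccharomyces cerevisiae, budding yeast, grown overnight at 30 °C in the rich medium YPD and then diluted into fresh YPD for those 4 hours. RNA was enriched for mRNA and counted per gene, and 5667 of 6692 listed genes had enough counts to be tested. The strain background, how the gene was knocked out and whether the knockout is 1 clone are not given in these sources.

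Rad27 is the yeast counterpart of FEN1, the nuclease that cuts off the displaced 5′ ends of lagging strand fragments during replication, so that the fragments can be joined. Cells without it survive at 30 °C but carry nicks and gaps, and rad27 mutants are known to grow poorly or not at all when it is hot. Wild type yeast meets heat with the transcription factor Hsf1, which drives chaperone genes, and with the paired factors Msn2 and Msn4, which drive a general stress programme while ribosome production is cut back. If deletion and heat acted independently, their log2 effects would add. A gene can then respond more than additively, with a larger rise or fall in the knockout, or less than additively, with a smaller one, or the genotypes can move in opposite directions.

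The libraries held 4734266 to 5588983 counts, so 3 counts in a library were worth 0.537 to 0.634 CPM, counts scaled to a common library size. RAD27 itself (YKL113C, chrXI:224727-225875) had 0 counts in all 4 knockout libraries, against 96.8 and 90.4 CPM in wild type at 37 °C and 118.9 and 109.6 CPM in wild type at 30 °C, so no interaction can be estimated for it. Genes specific to mating type a were expressed in every library (STE2, the receptor for alpha pheromone, 207.9 to 710.0 CPM), while the alpha pheromone genes MF(ALPHA)1 and MF(ALPHA)2 stayed at or under 3.04 CPM. Not every marker followed that split. The alpha-specific genes SAG1 and STE3 stood at 31.1 to 52.9 and 1.86 to 9.45 CPM, and the a-specific gene ASG7 at 4.91 to 12.6 CPM. Replicates differed most in the heated knockout, with a chi-square per degree of freedom of 8.69 between its libraries, against 5.35 in the unheated knockout, 1.85 in heated wild type and 2.79 in unheated wild type, where counting error alone gives 1. The interaction test pools this spread over the groups. These are bulk RNA samples, so fewer cells of a type and less RNA per cell cannot be told apart.

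By the number of called genes, the knockout's response to heat was broader than that of wild type. Heating moved 3347 genes in the knockout, 59.1% of those tested, and 1858 genes, 32.8%, in wild type (edgeR quasi-likelihood test, adjusted p under 0.05). Both counts rest on a spread pooled over the groups, although replicates differed more in the knockout than in wild type. How far that pooling moved the counts was not tested. The interaction test was passed by 1900 genes, 33.5%. Of these, 929 genes, 16.4%, had the higher response in the knockout and 971 genes, 17.1%, the lower one. When libraries were scaled by size alone, the median interaction of all genes was 0.12 on the log2 scale, against 0.01 with TMM, and the split was 1197 higher and 604 lower. Large interactions were mostly positive: 340 genes had an interaction of at least 2-fold upward and 66 downward, and at 4-fold the counts were 75 and 11.

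The 1900 genes were sorted by their own responses. More than additive were 662 genes that rose further in the knockout (amplified rises) and 719 that fell further (amplified falls). Wild type's own response did not pass the test in 561 of the 662 and in 510 of the 719, so for most of these the heat response was seen in the knockout alone at this threshold. Less than additive were 159 genes whose rise in wild type was smaller or not called in the knockout (damped rises), and 147 genes whose fall in wild type was smaller or not called there (damped falls). Both responses passed the test with opposite signs in 164 genes, of which 86 rose in the knockout and fell in wild type, and 78 fell in the knockout and rose in wild type. That count of 164 was 279 without replicate 1 of the heated knockout, 104 and 84 without replicate 1 or 2 of unheated wild type, 78 and 94 without replicate 1 or 2 of heated wild type, 108 without replicate 1 of the unheated knockout and 99 with DESeq2. The last 49 genes passed neither response test. The rises were larger than the falls: the median interaction was 0.82 on the log2 scale in genes with an amplified rise and -0.46 in genes with an amplified fall. Across the 5127 genes averaging 10 CPM or more the responses correlated with Pearson r = 0.45, a description across genes that share libraries and are not independent replicates.

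**Figure D1:**
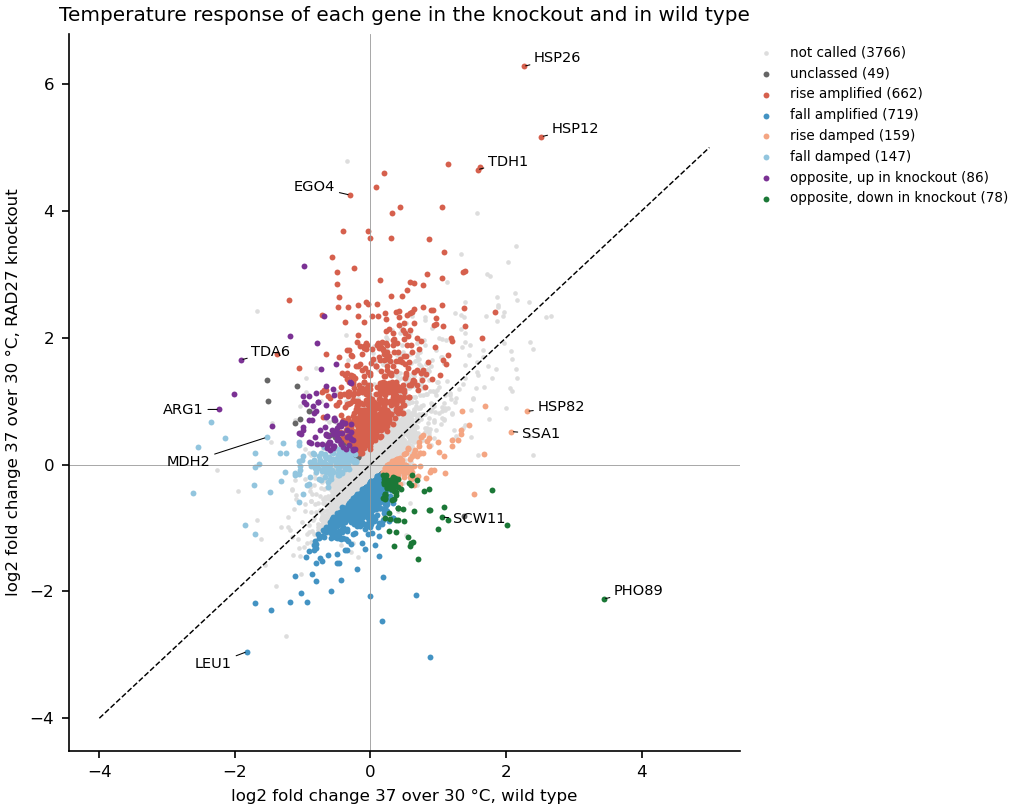
Each point is a gene, with its log2 fold change for 37 over 30 °C in the RAD27 knockout on the vertical axis and in wild type on the horizontal axis. Colours give the class of the interaction and the counts stand in the legend, RAD27 being left out. On the dashed line the genotypes respond alike; HSP26 lies far above it, at 6.28 in the knockout and 2.26 in wild type, and PHO89 far below it, at -2.12 and 3.44.

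The stress programme driven by Msn2 and Msn4 was the clearest case of a more than additive rise. Of 38 tested general stress genes, 28 had a higher response in the knockout and 0 a lower one, beside 16.4% and 17.1% of all genes. The list's median log2 change with heating was 1.97 in the knockout and 0.64 in wild type, with a median interaction of 1.45 beside 0.01 over all genes. Summed over the list, the level was 11106.4 and 13756.3 CPM in the heated knockout, 2903.8 and 3129.2 CPM in the unheated knockout, 3443.6 and 3385.1 CPM in heated wild type and 2131.6 and 2314.8 CPM in unheated wild type. The sum therefore set the heated knockout apart from all other libraries. Msn2 and Msn4 bind the stress response element, whose core is AGGGG on either strand, CCCCT when read from the other side. The promoters of DDR2 and HSP12 are printed because these genes are classic stress reporters whose elements lie close together. They are the 250 bases before the annotated start, chrXV:231756-232005 on the minus strand and chrVI:107006-107255 on the plus strand, from the RefSeq R64 genome, 5′ to 3′ on the gene's own strand with the core in capitals.
DDR2: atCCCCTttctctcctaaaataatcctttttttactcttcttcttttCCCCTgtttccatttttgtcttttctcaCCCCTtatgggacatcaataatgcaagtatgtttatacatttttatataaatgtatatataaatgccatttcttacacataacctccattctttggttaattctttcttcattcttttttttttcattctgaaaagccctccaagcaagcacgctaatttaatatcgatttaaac
HSP12: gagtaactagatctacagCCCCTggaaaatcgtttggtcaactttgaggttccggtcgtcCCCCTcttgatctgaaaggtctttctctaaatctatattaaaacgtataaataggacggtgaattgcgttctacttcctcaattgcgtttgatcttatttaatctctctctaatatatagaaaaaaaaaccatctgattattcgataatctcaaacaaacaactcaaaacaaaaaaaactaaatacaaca

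DDR2 makes a small protein induced by many stresses, and 3 cores stand in its window. Its level was 46.9 and 62.4 CPM in the heated knockout, 2.34 and 6.07 CPM in the unheated knockout, 6.06 and 4.34 CPM in heated wild type and 5.58 and 5.16 CPM in unheated wild type. The heated knockout did not overlap any other group, and the other groups overlapped each other. The interaction was 3.73 ± 0.53 on the log2 scale (SE, adjusted p = 0.00028). HSP12, a membrane-protecting protein with 2 cores in its window, behaved differently in that wild type also responded. It had 720.0 and 918.0 CPM in the heated knockout, 17.5 and 27.9 CPM in the unheated knockout, 194.2 and 182.5 CPM in heated wild type and 37.9 and 28.1 CPM in unheated wild type. Additive effects would have given 129.7 CPM in the heated knockout, and the mean there was 6.31 times that (interaction 2.65 ± 0.26, adjusted p = 2.18e-05). TDH1, an isozyme of the glycolytic enzyme glyceraldehyde-3-phosphate dehydrogenase, stood at 1396.2 and 1444.1 CPM in the heated knockout, 63.6 and 49.5 CPM in the unheated knockout, 192.5 and 189.4 CPM in heated wild type and 57.3 and 70.2 CPM in unheated wild type. At 30 °C the genotypes overlapped for TDH1, and at 37 °C they were far apart, with an interaction of 3.07 ± 0.15 (adjusted p = 1.17e-07).

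**Figure D2:**
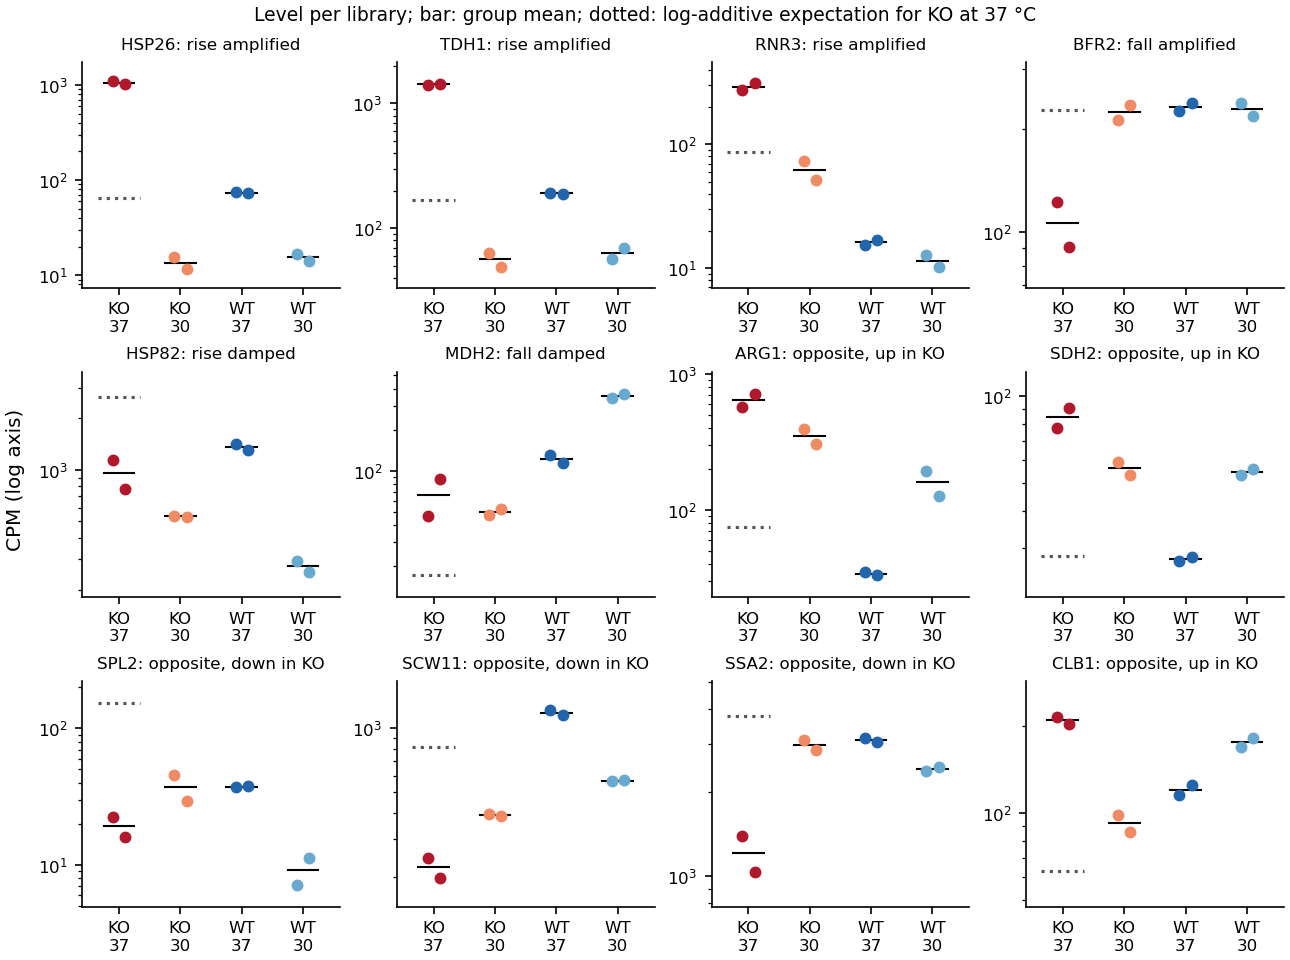
CPM of 12 genes in each library on a log axis, with the heated knockout (KO 37), unheated knockout (KO 30), heated wild type (WT 37) and unheated wild type (WT 30) along the horizontal axis. Points are libraries, bars are group means and the dotted line is the level additive log2 effects would give in the heated knockout. HSP26 lies above its line at 1100.4 and 1013.4 against 64.8 CPM, and SCW11 below its line at 244.8 and 197.9 against 818.4 CPM.

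Among the 12 most positive interactions named, wild type's own response passed the test in HSP26, HSP30 and TDA6 alone. EGO4 had 69.9 and 116.8 CPM in the heated knockout and 3.98 to 5.37 CPM in the other 6 libraries, an interaction of 4.55 ± 0.65 (adjusted p = 0.000291). PIR3, a structural protein of the cell wall, had 194.4 and 351.8 CPM in the heated knockout and 7.17 to 11.4 CPM elsewhere, an interaction of 4.40 ± 0.65 (adjusted p = 0.000372). Neither gene's heated knockout libraries overlapped any other library. HSP26, a small heat shock protein that holds unfolding proteins, differed in that heat raised it in both genotypes, by 6.28 on the log2 scale in the knockout and 2.26 in wild type. It stood at 1100.4 and 1013.4 CPM in the heated knockout, 15.6 and 11.6 CPM in the unheated knockout, 75.4 and 72.3 CPM in heated wild type and 16.7 and 14.2 CPM in unheated wild type. RGI1, named for its induction in respiratory growth, had an interaction of 4.09 ± 0.67, with 144.4 and 322.3 CPM in the heated knockout and 10.4 to 20.9 CPM in the other libraries.

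Genes of reserve carbohydrate stood among the amplified rises. Glycogen genes gave 10 higher and 0 lower of 13 tested, beside 16.4% and 17.1% of all genes. The glycogen list's median response was 1.26 in the knockout and 0.40 in wild type. GLC3, the glycogen branching enzyme, had 208.3 and 515.8 CPM in the heated knockout, 31.8 and 42.9 CPM in the unheated knockout, 16.5 and 15.5 CPM in heated wild type and 23.4 and 23.7 CPM in unheated wild type. The heated knockout libraries differed from each other for GLC3, yet both lay above all others (interaction 3.84 ± 0.64, adjusted p = 0.000779). GAC1, which targets a phosphatase to glycogen synthase, had an interaction of 3.59 ± 0.86, and GSY1, a glycogen synthase, 1.83 ± 0.44. All 7 tested trehalose genes had the higher response in the knockout, a count that came to 4 without replicate 1 of unheated wild type and 3 without replicate 2 of heated wild type. TPS2, the phosphatase that completes trehalose synthesis, had 329.5 and 471.6 CPM in the heated knockout, 167.3 and 187.7 CPM in the unheated knockout, 128.1 and 136.4 CPM in heated wild type and 129.4 and 154.6 CPM in unheated wild type. Its knockout response of 1.18 had no called counterpart in wild type (interaction 1.28 ± 0.20, adjusted p = 0.00056).

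Genes that yeast uses without glucose rose in the knockout as well. Of 21 genes of gluconeogenesis, the glyoxylate cycle and fat use, 11 had a higher response in the knockout and 0 a lower one. The shares of all genes were 16.4% and 17.1%. The list's median response was 1.41 in the knockout and 0.09 in wild type. The count of higher genes depended on single libraries: it was 7 without replicate 2 of heated wild type or without replicate 1 of the unheated knockout, and 18 without replicate 1 of the heated knockout. The list summed to 983.4 and 1906.8 CPM in the heated knockout, so that its replicates were far apart, 589.5 and 642.4 CPM in the unheated knockout, 891.7 and 824.4 CPM in heated wild type and 909.3 and 936.2 CPM in unheated wild type. JEN1, a lactate and pyruvate carrier, had 28.6 and 83.3 CPM in the heated knockout and 3.03 to 9.36 CPM in the other libraries (interaction 3.79 ± 0.94, adjusted p = 0.00828). PCK1, which catalyses the committed step of gluconeogenesis, had 48 and 181.4 CPM in the heated knockout and at most 10.2 CPM elsewhere, and its call (3.63 ± 1.23, adjusted p = 0.0376) was lost in 9 of 20 other settings. CAT8, an activator of such genes, had an interaction of 2.19 ± 0.56.

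Among 11 tested hexose transporters, 4 had a higher response in the knockout and 1 a lower one, HXT1, beside 16.4% and 17.1% of all genes. The higher count was 3 with DESeq2 and with no filter, and 5 with either replicate block and with limma-voom with group weights. The lower count was 2 with either block and with those weights. The list's median interaction was 0.43, and it ran from 0.20 to 0.86 over the libraries left out. HXT4 and HXT7, which are induced when glucose is scarce, responded more in the knockout, and HXT1, the low-affinity transporter of glucose-rich medium, responded less. HXT1 stood at 243.7 and 231.8 CPM in the heated knockout, 635.1 and 658.3 CPM in the unheated knockout, 772.5 and 821.2 CPM in heated wild type and 736.9 and 734.1 CPM in unheated wild type. The heated knockout libraries were the lowest, without overlap (interaction -1.56 ± 0.09, adjusted p = 3.34e-07). HXT4 had 714.1 and 1125.1 CPM in the heated knockout, 264.7 and 261.9 CPM in the unheated knockout, 236.3 and 208.9 CPM in heated wild type and 251.1 and 313.1 CPM in unheated wild type (interaction 2.15 ± 0.24, adjusted p = 4.86e-05). HXT6, at 3.59 ± 0.55, and HXT7, at 1.79 ± 0.37, are near-identical copies whose reads the counting may have split between them, so their separate values are uncertain.

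Of 18 tested genes induced by DNA damage, 12 had a higher response in the knockout and 1 a lower one, a single call that was lost with DESeq2, with library size alone and without replicate 2 of unheated wild type, either heated wild type library or replicate 1 of the unheated knockout, and the median response was 0.96 in the knockout and 0.22 in wild type. Among all genes, 16.4% had the higher and 17.1% the lower response. Summed, the list stood at 8941.7 and 9660.0 CPM in the heated knockout, 5650.5 and 5093.7 CPM in the unheated knockout, 2543.7 and 2458.7 CPM in heated wild type and 2469.7 and 2539.4 CPM in unheated wild type. The sums of the knockout thus lay above those of wild type at both temperatures. RNR3, the damage-inducible large subunit of ribonucleotide reductase, had 273.5 and 310.3 CPM in the heated knockout, 73.3 and 51.2 CPM in the unheated knockout, 15.3 and 17 CPM in heated wild type and 12.7 and 10.3 CPM in unheated wild type. Every group stood apart from the others, and the heated knockout was 3.34 times the additive expectation of 87.4 CPM (interaction 1.74 ± 0.29, adjusted p = 0.000779). HUG1, an inhibitor of ribonucleotide reductase, had 139.7 and 171.8 CPM in the heated knockout, 42.3 and 35.5 CPM in the unheated knockout, 7.39 and 7.36 CPM in heated wild type and 4.24 and 4.95 CPM in unheated wild type. Its interaction was 1.33 ± 0.34 (adjusted p = 0.0105, and 1.21 ± 0.46 with 0.0789 without replicate 2 of unheated wild type), with no called response in wild type. DUN1, a kinase of the damage checkpoint, moved in opposite directions, with 84.9 and 84.9 CPM in the heated knockout, 56.5 and 64.7 CPM in the unheated knockout, 23.3 and 27.4 CPM in heated wild type and 40.1 and 39.6 CPM in unheated wild type (interaction 1.14 ± 0.16, adjusted p = 0.000213).

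Few genes of the replication and recombination machinery had a called interaction, fewer in each direction than the 16.4% higher and 17.1% lower among all genes. Among 20 tested genes of Okazaki fragment maturation, 1 passed in each direction, RFC5 at 0.41 ± 0.14 and RFC1 at -0.40 ± 0.11, both subunits of the clamp loader, with the calls lost in 8 and 5 of 20 other settings, and the list's median interaction was 0.00. With library size as the only scaling, 5 of the 20 were higher, and without replicate 1 of the heated knockout 2 were higher and 3 lower. POL30, the sliding clamp, had an interaction of 0.30 ± 0.13 (adjusted p = 0.0875), POL3, a lagging strand polymerase, -0.16 ± 0.12 (0.32), and CDC9, the ligase that seals fragments, 0.01 ± 0.10 (0.946). DNA2 and EXO1, nucleases that can also act on flaps, had -0.26 ± 0.11 (0.101) and 0.30 ± 0.13 (0.0864). Of 21 genes of homologous recombination, 2 were higher and 1 lower. RAD54, a DNA-dependent ATPase of strand invasion, had an interaction of 0.41 ± 0.12, a call lost with DESeq2 (adjusted p = 0.0902) and without replicate 1 of unheated wild type, replicate 2 of heated wild type or replicate 2 of the unheated knockout, and RAD52, the mediator of recombination, had -0.44 ± 0.12, a call lost without replicate 1 of unheated wild type or replicate 1 of the unheated knockout.

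By count of called genes, production of ribosomes was the clearest case of a more than additive fall. Of 93 ribosome biogenesis genes, 65 had a lower response in the knockout and 0 a higher one, beside 17.1% and 16.4% of all genes, with median responses of -0.51 in the knockout and -0.07 in wild type. With library size alone the counts were 47 lower and 1 higher. The differences were mostly small, with a median interaction of -0.40, and 2 of the 93 were called when tested against a 1.5-fold interaction. Many such genes carry a pair of elements known as PAC, searched for here by its core GATGAG, and RRPE, searched for by AAATTTT. Windows of BFR2 and UTP18, the named members with the most negative interactions, are printed to show the pair side by side, chrIV:1059377-1059626 on the plus strand and chrX:312707-312956 on the minus strand, with both elements in capitals on whichever strand they matched.
BFR2: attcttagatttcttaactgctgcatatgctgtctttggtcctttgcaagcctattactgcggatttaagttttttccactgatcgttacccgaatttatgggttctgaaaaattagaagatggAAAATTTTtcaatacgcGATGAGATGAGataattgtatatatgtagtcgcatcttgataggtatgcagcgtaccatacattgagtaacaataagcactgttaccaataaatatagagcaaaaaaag
UTP18: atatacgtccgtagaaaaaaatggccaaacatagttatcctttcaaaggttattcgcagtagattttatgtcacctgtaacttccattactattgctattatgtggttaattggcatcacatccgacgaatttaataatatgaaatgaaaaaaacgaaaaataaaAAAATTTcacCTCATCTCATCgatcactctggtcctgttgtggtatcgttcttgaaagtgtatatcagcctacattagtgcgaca

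BFR2, a factor of early ribosome assembly, had 122.5 and 90.4 CPM in the heated knockout, 212.5 and 235.7 CPM in the unheated knockout, 226.4 and 239.3 CPM in heated wild type and 238.7 and 219.2 CPM in unheated wild type. The other 3 groups overlapped and the heated knockout lay below them all (interaction -1.10 ± 0.16, adjusted p = 0.000272). UTP18, part of the complex that processes the small subunit RNA, was likewise lowest there, with 124.7 and 91.4 CPM in the heated knockout, 214.2 and 192.8 CPM in the unheated knockout, 224.4 and 235.1 CPM in heated wild type and 216.3 and 207.2 CPM in unheated wild type (-1.03 ± 0.16, adjusted p = 0.000409). Subunits of RNA polymerases I and III, which transcribe ribosomal and transfer RNA, gave 12 lower and 0 higher of 19. The shares of all genes were 17.1% and 16.4%. Tested against a 1.5-fold interaction, 0 of the 19 were called. RPA190, the largest subunit of polymerase I, had 613.2 and 558.6 CPM in the heated knockout, 837.8 and 764.6 CPM in the unheated knockout, 1119.7 and 1048.2 CPM in heated wild type and 1080.2 and 1002.2 CPM in unheated wild type. Wild type did not respond by a called amount while the knockout fell (interaction -0.51 ± 0.11, adjusted p = 0.00351).

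Ribosomal protein genes fell with heat in both genotypes, and further in the knockout. Of 137 cytosolic ribosomal protein genes, 132 fell in the knockout and 127 in wild type, beside 59.1% and 32.8% of all genes moving either way. Of the 137, 78 had a called interaction, each of them lower in the knockout, beside 17.1% of all genes called lower. Tested against a 1.5-fold interaction, 1 of the 137 was called. Summed, their level was 91520.0 and 84251.4 CPM in the heated knockout, 165134.1 and 154461.2 CPM in the unheated knockout, 107799.9 and 111968.0 CPM in heated wild type and 155203.9 and 168242.9 CPM in unheated wild type. The unheated groups overlapped, and the heated knockout lay below heated wild type. The number called moved with single libraries: it was 34 without replicate 1 of unheated wild type, 39 without replicate 2 of heated wild type, 44 without replicate 1 of the unheated knockout and 47 with library size alone, and the list's median interaction stayed between -0.41 and -0.27 over the libraries left out. RPL41A, the smallest ribosomal protein, had the list's largest interaction among named members, -1.03 ± 0.15, while RPS14B rose in wild type by 0.60 and not in the knockout (-0.66 ± 0.10). RPL8B, at -0.62 ± 0.10, has the near-identical copy RPL8A. Mitochondrial ribosomal protein genes gave 10 higher and 1 lower of 67, both smaller shares than the 16.4% and 17.1% of all genes. The higher count was 3 without replicate 2 of unheated wild type or either heated wild type library, 5 without replicate 1 of the unheated knockout, 2 with DESeq2 and 19 with library size alone, and the lower count was 4 without replicate 1 of the heated knockout.

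Amino acid pathways fell further or reversed, depending on the pathway. Branched-chain genes gave 6 lower and 0 higher of 12, beside 17.1% and 16.4% of all genes. LEU1, an isomerase of leucine synthesis, had 222.4 and 239.3 CPM in the heated knockout, 2001.6 and 1578.3 CPM in the unheated knockout, 297.1 and 328.3 CPM in heated wild type and 1164.3 and 1037.9 CPM in unheated wild type. The knockout was above wild type at 30 °C and below it at 37 °C, so LEU1 crossed over (interaction -1.14 ± 0.15, adjusted p = 0.000166). Methionine and sulfur genes gave 12 lower and 3 higher of 28, the higher count being 1 with DESeq2 and without replicate 1 of unheated wild type, replicate 2 of heated wild type or replicate 2 of the unheated knockout. The 3 higher were a smaller share than among all genes. MET14, the kinase of sulfate assimilation, had 24.2 and 26 CPM in the heated knockout, 76.8 and 81 CPM in the unheated knockout, 25.4 and 30.6 CPM in heated wild type and 31.2 and 32.8 CPM in unheated wild type. Its high level in the unheated knockout was gone after heating (interaction -1.46 ± 0.17, adjusted p = 6.48e-05), and MMP1, a permease for S-methylmethionine, did likewise at -2.07 ± 0.17. MET17, at -1.95 ± 0.11, has the gene YLR302C on the opposite strand, and whether the counting used strand is not stated.

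Of 10 histone genes, 10 fell with heat in the knockout and 7 in wild type, beside 59.1% and 32.8% of all genes moving either way. Of the 10, 5 had a called interaction, each lower in the knockout. Among all genes, 17.1% were called lower and 16.4% higher. HTB2, a gene for histone H2B, had 158.9 and 123.2 CPM in the heated knockout, 288.5 and 328.5 CPM in the unheated knockout, 498.4 and 472.7 CPM in heated wild type and 466.8 and 420.0 CPM in unheated wild type. Heated wild type was the highest group and the heated knockout the lowest (interaction -1.26 ± 0.15, adjusted p = 6.87e-05). HTA2, for histone H2A, had an interaction of -0.69 ± 0.16. HHF1 and HHF2 encode the same histone H4 and are near-identical copies, at -0.66 ± 0.14 and -0.70 ± 0.11. Proteasome genes, which the factor Rpn4 induces, gave 16 lower and 1 higher of 34, the higher one being RPN4 itself at 0.79 ± 0.21, which came to 0.43 ± 0.11 without replicate 2 of the heated knockout. The lower count was 9 without replicate 1 of unheated wild type and 7 with library size alone. RPT1, an ATPase of the proteasome base, had 300.4 and 274.0 CPM in the heated knockout, 413.5 and 401.9 CPM in the unheated knockout, 327.4 and 327.8 CPM in heated wild type and 301.1 and 305.2 CPM in unheated wild type, so the excess seen in the unheated knockout was absent after heating (-0.62 ± 0.09, adjusted p = 0.000389).

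Heat shock chaperone genes were split between classes, with more lower than higher responses in the knockout. Of 30 tested, 14 had a lower response in the knockout and 7 a higher one, beside 17.1% and 16.4% of all genes, and the median response was 0.00 in the knockout and 0.34 in wild type. The 14 held 7 damped rises, 4 genes that fell in the knockout and rose in wild type, and 3 amplified falls, while the 7 held 4 damped falls and 3 amplified rises. The higher count was 4 without replicate 1 of unheated wild type or replicate 2 of heated wild type. Hsf1 binds inverted GAA repeats, searched for as GAANNTTC or TTCNNGAA. The window of HSP82 (chrXVI:98626-98875, minus strand) is printed because this Hsf1 target had the largest wild type rise in its class among the named genes, with the 2 matches in capitals.
HSP82: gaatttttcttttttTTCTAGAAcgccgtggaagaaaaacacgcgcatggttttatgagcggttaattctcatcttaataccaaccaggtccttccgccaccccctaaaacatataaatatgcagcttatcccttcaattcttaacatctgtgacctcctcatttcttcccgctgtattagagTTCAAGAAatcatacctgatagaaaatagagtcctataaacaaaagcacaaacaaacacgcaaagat

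HSP82, the heat-inducible Hsp90, had 1134.2 and 775.5 CPM in the heated knockout, 540.6 and 527.4 CPM in the unheated knockout, 1409.6 and 1309.0 CPM in heated wild type and 294.9 and 253.9 CPM in unheated wild type. The unheated knockout was above unheated wild type and the heated knockout below heated wild type, with a rise of 0.84 in the knockout and 2.31 in wild type (interaction -1.47 ± 0.19, adjusted p = 0.000156). SSA1, a cytosolic Hsp70, had 1508.0 and 1256.8 CPM in the heated knockout, 971.8 and 951.7 CPM in the unheated knockout, 1972.8 and 1856.7 CPM in heated wild type and 460.1 and 444.8 CPM in unheated wild type, an interaction of -1.56 ± 0.12 (adjusted p = 2.9e-06). SSA2, its constitutive and near-identical copy, moved in opposite directions: 1390.9 and 1033.9 CPM in the heated knockout, 3087.1 and 2839.9 CPM in the unheated knockout, 3143.1 and 3037.0 CPM in heated wild type and 2391.4 and 2468.0 CPM in unheated wild type (-1.64 ± 0.16, adjusted p = 1.76e-05). Reads shared between SSA1 and SSA2 may have been split by the counting, so their separate values are uncertain, but both interactions were negative. Not every chaperone was damped. The 3 genes singled out after their values were seen, the disaggregase HSP104 (0.16 ± 0.10, adjusted p = 0.267), the Hsp70 gene SSA4 (0.18 ± 0.12, adjusted p = 0.256) and the small heat shock gene HSP42 (0.20 ± 0.13, adjusted p = 0.258), rose in both genotypes without a called interaction.

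Less than additive falls were headed by MDH2, the cytosolic malate dehydrogenase. It had 46.7 and 86.9 CPM in the heated knockout, 47.4 and 52.6 CPM in the unheated knockout, 130.9 and 113.4 CPM in heated wild type and 339.5 and 365.3 CPM in unheated wild type. The knockout was already low at 30 °C and its groups overlapped, whereas wild type fell by 1.53 on the log2 scale (interaction 1.95 ± 0.27, adjusted p = 0.000216). GAP1, the general amino acid permease, fell in wild type by 1.71 and had an interaction of 1.67 ± 0.23, and CLN1, a G1 cyclin, fell by 1.04 with an interaction of 1.01 ± 0.13. HIS4, an enzyme of histidine synthesis and a standard target of Gcn4, the activator of amino acid genes, has 2 copies of the Gcn4 core TGACTC in its window (chrIII:68334-68583, minus strand), which is printed with them in capitals. The window of ARG1 (chrXV:218961-219210, plus strand), another gene of the Gcn4 list, holds 0 copies.
HIS4: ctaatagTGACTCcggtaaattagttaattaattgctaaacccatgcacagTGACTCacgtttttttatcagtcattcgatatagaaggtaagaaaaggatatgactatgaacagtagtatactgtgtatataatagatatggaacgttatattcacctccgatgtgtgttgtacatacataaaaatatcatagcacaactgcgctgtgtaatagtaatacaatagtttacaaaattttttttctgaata

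HIS4 had 333.9 and 412.7 CPM in the heated knockout, 331.0 and 258.8 CPM in the unheated knockout, 96.6 and 85.1 CPM in heated wild type and 256.1 and 188.8 CPM in unheated wild type. Only heated wild type stood low, and the knockout's own change of 0.34 did not pass (adjusted p = 0.0519), giving an interaction of 1.63 ± 0.21 (adjusted p = 0.000155). Of 37 genes for amino acids under Gcn4 other than the branched-chain and sulfur ones, 16 had a higher response in the knockout and 4 a lower one. Among all genes, 16.4% were higher and 17.1% lower. The list's median interaction was 0.23, and its 4 lower genes were a smaller share than among all genes. The lower count was 1 with library size alone, with DESeq2 and without either unheated wild type library, replicate 2 of heated wild type or replicate 1 of the unheated knockout, and 2 without replicate 1 of heated wild type. Of the 37, 8 rose in the knockout and fell in wild type, the arginine genes ARG1 and ARG3 among them. ARG1, argininosuccinate synthetase, had 573.0 and 713.4 CPM in the heated knockout, 395.3 and 308.4 CPM in the unheated knockout, 35.1 and 33.4 CPM in heated wild type and 194.0 and 127.5 CPM in unheated wild type. It rose in the knockout by 0.87, while in wild type it fell by 2.23 (interaction 3.10 ± 0.26, adjusted p = 5.95e-06). ARG3, ornithine carbamoyltransferase, had 72.9 and 80.7 CPM in the heated knockout, 18.3 and 19.2 CPM in the unheated knockout, 4.74 and 7.55 CPM in heated wild type and 16.1 and 12.2 CPM in unheated wild type (3.22 ± 0.28, adjusted p = 7.98e-06). CAR2, ornithine aminotransferase of arginine breakdown, reversed the other way, with 202.1 and 180.2 CPM in the heated knockout, 266.7 and 236.6 CPM in the unheated knockout, 352.3 and 385.9 CPM in heated wild type and 99.9 and 113.5 CPM in unheated wild type (-2.19 ± 0.13, adjusted p = 3.34e-07).

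Respiration was the pathway in which heat lowered wild type and the knockout held. Of 44 genes for TCA enzymes and respiratory complexes, 39 fell in wild type and 3 in the knockout, and 14 rose in the knockout and 1 in wild type. Among all genes, 32.8% moved either way in wild type and 59.1% in the knockout. The interaction was higher for 16.4% and lower for 17.1% of all genes. Of the 44, it was higher for 40 and lower for 1, with 27 less than additive falls and 10 reversals. Their summed level was 8570.5 and 9189.6 CPM in the heated knockout, 8695.3 and 8909.2 CPM in the unheated knockout, 5871.1 and 6063.6 CPM in heated wild type and 8506.8 and 9157.4 CPM in unheated wild type, so only heated wild type stood apart. SDH2, the iron-sulfur subunit of succinate dehydrogenase, had 77.8 and 91.3 CPM in the heated knockout, 59.1 and 53.5 CPM in the unheated knockout, 26.9 and 27.9 CPM in heated wild type and 53.3 and 56.1 CPM in unheated wild type. The unheated groups overlapped and the heated ones moved apart in opposite directions (interaction 1.59 ± 0.16, adjusted p = 2.12e-05). SDH1, its flavoprotein partner, had 1.64 ± 0.17, NDI1, the NADH dehydrogenase of the inner membrane, 1.61 ± 0.14, and ATP20, a subunit of the ATP synthase, 1.56 ± 0.20.

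**Figure D3:**
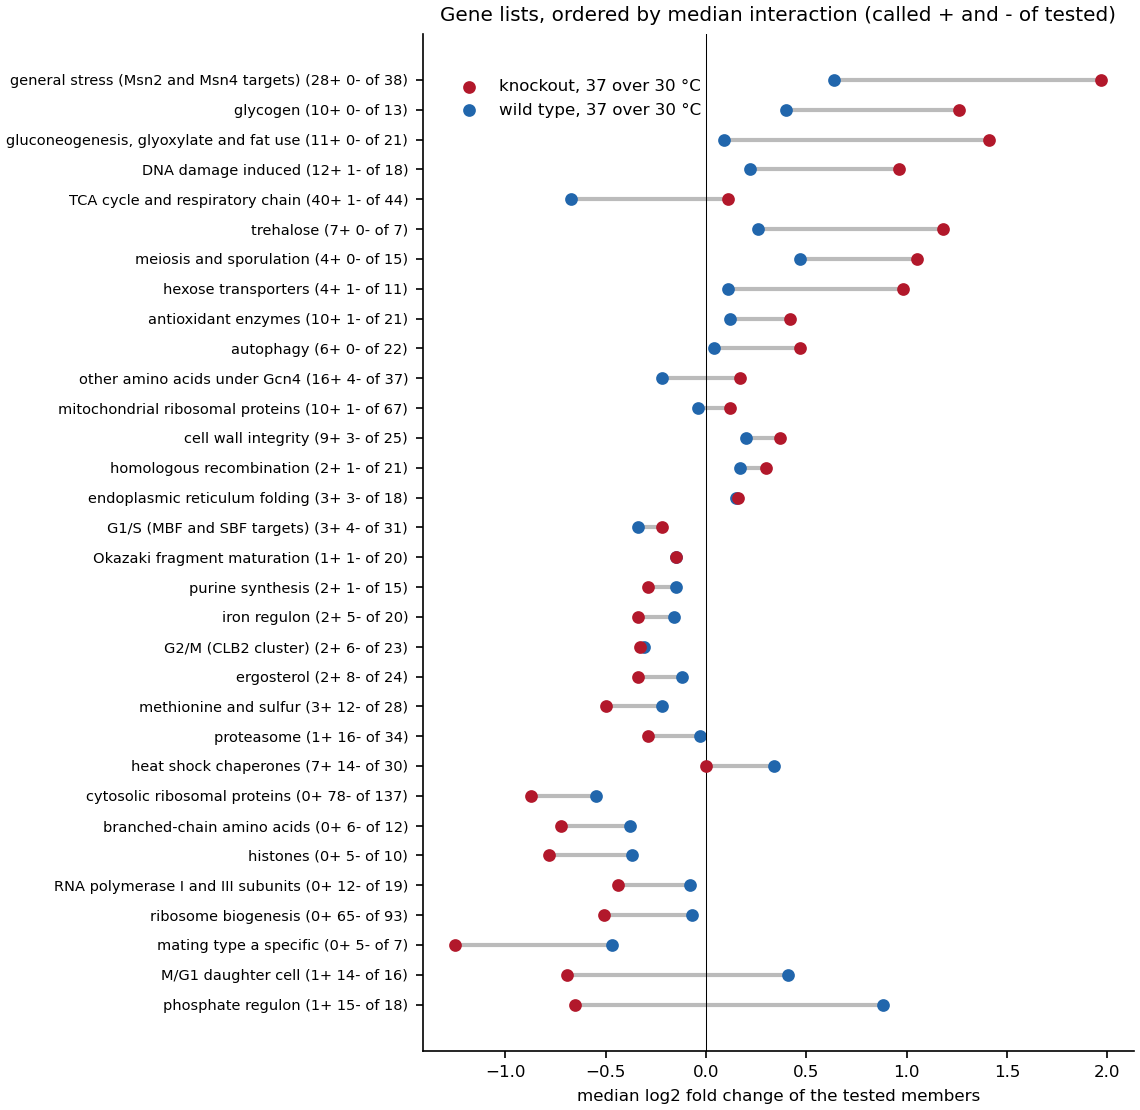
Median log2 fold change for 37 over 30 °C of the tested members of 32 gene lists, in the knockout (red) and in wild type (blue), ordered by median interaction, with the members called higher (+) and lower (-) in the knockout beside each name. General stress genes lie at 1.97 in the knockout and 0.64 in wild type, respiratory genes at 0.11 and -0.67, and phosphate genes at -0.65 and 0.88.

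Other genes that rose in the knockout and fell in wild type had varied roles. HSP30, a stress protein that restrains the proton pump of the plasma membrane, had 131.3 and 82 CPM in the heated knockout, 11.1 and 13.1 CPM in the unheated knockout, 12.7 and 15.5 CPM in heated wild type and 22.3 and 33 CPM in unheated wild type (interaction 4.11 ± 0.39, adjusted p = 1.55e-05). TDA6 had 136.2 and 128.6 CPM in the heated knockout, 46 and 38.1 CPM in the unheated knockout, 17.8 and 28.9 CPM in heated wild type and 79.4 and 96 CPM in unheated wild type (3.56 ± 0.22, adjusted p = 5.54e-07). The 4 groups did not overlap for TDA6, and for HSP30 the unheated knockout overlapped heated wild type alone. CLB1, a mitotic cyclin, had 214.7 and 203.5 CPM in the heated knockout, 98.2 and 85.6 CPM in the unheated knockout, 115.2 and 124.9 CPM in heated wild type and 169.5 and 181.2 CPM in unheated wild type. Heating thus reversed the order of the genotypes (interaction 1.73 ± 0.12, adjusted p = 1.04e-06). FMP48, a putative kinase, had 3.13 ± 0.31 and PRM4, a gene regulated by pheromone, 2.08 ± 0.38.

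Phosphate genes showed the reverse pattern and the most negative interactions. Of 18 genes of the phosphate regulon, 15 had a lower response in the knockout and 1 a higher one, beside 17.1% and 16.4% of all genes. Of the 18, 13 rose in wild type and 12 fell in the knockout, beside 32.8% and 59.1% of all genes moving either way. In 8 both responses were called with opposite signs. The median response was -0.65 in the knockout and 0.88 in wild type. In this regulon Pho4 activates genes through the sequence CACGTG, which Cbf1 also binds. The window of SPL2 (chrVIII:375101-375350, minus strand) is printed because it holds 3 copies, shown in capitals.
SPL2: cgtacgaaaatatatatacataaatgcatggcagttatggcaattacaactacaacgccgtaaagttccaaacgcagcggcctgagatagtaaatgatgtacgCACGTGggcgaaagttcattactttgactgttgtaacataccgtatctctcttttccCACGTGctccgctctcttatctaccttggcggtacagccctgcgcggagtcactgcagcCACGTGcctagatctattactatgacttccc

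SPL2, which lowers phosphate uptake by low-affinity carriers, had 22.5 and 15.9 CPM in the heated knockout, 45.4 and 29.2 CPM in the unheated knockout, 37.1 and 37.5 CPM in heated wild type and 7.14 and 11.1 CPM in unheated wild type. Additive effects would have given 152.5 CPM, and the interaction was -2.98 ± 0.34 (adjusted p = 5.85e-05). PHO89, a phosphate carrier coupled to sodium, had the most negative interaction named, -5.55 ± 0.62 (adjusted p = 5.08e-05). It stood at 8.97 and 17.4 CPM in the heated knockout, 75.6 and 40.2 CPM in the unheated knockout, 25.8 and 18.9 CPM in heated wild type and 2.01 and 2.06 CPM in unheated wild type. The unheated knockout was the highest group and unheated wild type the lowest, so the genotypes started far apart and ended close. PHO5, a secreted acid phosphatase, had 133.1 and 83.2 CPM in the heated knockout, 292.0 and 141.2 CPM in the unheated knockout, 112.0 and 110.2 CPM in heated wild type and 45.9 and 64.6 CPM in unheated wild type, with wide spread in the knockout (-2.01 ± 0.41, adjusted p = 0.00298). PHO84, the high-affinity carrier, rose in wild type by 1.53 and not in the knockout (-1.99 ± 0.33), and it overlaps the noncoding gene YNCM0001W on the other strand. PHO12, at -3.91 ± 0.48, has the near-identical copy PHO11, and PHM6 had -2.03 ± 0.38.

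Genes that daughter cells switch on after division also moved in opposite directions. Of 16 tested, 14 had a lower response in the knockout and 1 a higher one, a single call lost with DESeq2 and without replicate 2 of unheated wild type, either heated wild type library or replicate 2 of the unheated knockout. Among all genes, 17.1% had the lower and 16.4% the higher response. Of the 16, 12 rose in wild type and 13 fell in the knockout, beside 32.8% and 59.1% of all genes moving either way. Summed, the list stood at 2843.6 and 2673.9 CPM in the heated knockout, 4947.6 and 4765.8 CPM in the unheated knockout, 11626.1 and 11321.7 CPM in heated wild type and 8411.3 and 8339.3 CPM in unheated wild type. These sums did not overlap between any groups. Swi5, a factor active at this stage, binds CCAGC, and windows of EGT2 (chrXIV:23798-24047, plus strand) and DSE4 (chrXIV:759100-759349, minus strand), which hold 1 core each, are printed with it in capitals as genes of cell separation with a reversed response.
EGT2: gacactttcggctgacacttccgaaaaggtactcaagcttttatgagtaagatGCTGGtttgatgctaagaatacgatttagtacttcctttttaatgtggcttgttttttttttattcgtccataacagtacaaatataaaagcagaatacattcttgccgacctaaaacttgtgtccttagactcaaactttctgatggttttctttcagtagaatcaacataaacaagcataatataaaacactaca
DSE4: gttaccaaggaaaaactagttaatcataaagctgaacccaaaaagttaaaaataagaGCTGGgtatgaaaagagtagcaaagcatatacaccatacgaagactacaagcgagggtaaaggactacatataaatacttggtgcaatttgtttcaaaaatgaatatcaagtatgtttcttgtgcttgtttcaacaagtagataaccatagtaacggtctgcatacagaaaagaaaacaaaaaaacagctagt

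EGT2, a glucanase needed for daughter and mother to part, had 360.6 and 286.3 CPM in the heated knockout, 814.7 and 754.1 CPM in the unheated knockout, 1819.1 and 1748.6 CPM in heated wild type and 1198.6 and 1169.2 CPM in unheated wild type (interaction -1.87 ± 0.13, adjusted p = 1.42e-06). DSE4, a glucanase of the daughter side, had 130.9 and 89.9 CPM in the heated knockout, 324.6 and 295.7 CPM in the unheated knockout, 588.7 and 583.6 CPM in heated wild type and 371.1 and 348.6 CPM in unheated wild type (-2.20 ± 0.17, adjusted p = 2.9e-06). SCW11, a wall glucanase, had 244.8 and 197.9 CPM in the heated knockout, 395.9 and 387.7 CPM in the unheated knockout, 1218.6 and 1154.2 CPM in heated wild type and 566.7 and 569.2 CPM in unheated wild type (-1.89 ± 0.12, adjusted p = 5.78e-07). In all 3 genes the order of groups was the same, with heated wild type highest and the heated knockout lowest and no overlap. Other phases of the cycle showed smaller counts: 2 higher and 6 lower of 23 G2/M genes, a lower count that was 1 without replicate 2 of unheated wild type, without replicate 1 of the unheated knockout or with library size alone and 3 without replicate 1 of unheated wild type or replicate 2 of heated wild type. Of 31 G1/S genes 3 were higher and 4 lower, both below the 16.4% and 17.1% of all genes, and library size alone gave 7 higher and 1 lower. The lower count of G1/S genes was 1 without replicate 2 of unheated wild type, replicate 1 of heated wild type or replicate 2 of the unheated knockout, and 2 with DESeq2 and without replicate 1 of the unheated knockout. Their higher count was 5 without replicate 2 of the unheated knockout.

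The remaining lists had mixed or small counts, to be read beside 16.4% higher and 17.1% lower among all genes. Antioxidant enzymes gave 10 higher and 1 lower of 21, among them PRX1, a mitochondrial peroxiredoxin (0.98 ± 0.13), and CTT1, the cytosolic catalase (0.98 ± 0.22). Cell wall integrity genes gave 9 higher and 3 lower of 25, with PST1, a wall protein, at 770.9 and 1211.3 CPM in the heated knockout, 194.2 and 179.9 CPM in the unheated knockout, 315.7 and 318.5 CPM in heated wild type and 208.1 and 206.6 CPM in unheated wild type (1.79 ± 0.22, adjusted p = 9.16e-05). Autophagy genes gave 6 higher and 0 lower of 22, and ATG1, the kinase that starts autophagy, had 0.69 ± 0.16. Ergosterol genes gave 8 lower and 2 higher of 24, the 2 being a smaller share than among all genes. ERG3, a desaturase, had -0.79 ± 0.09. Endoplasmic reticulum folding genes gave 3 higher and 3 lower of 18, close to the shares of all genes. Their higher count was 0 with DESeq2 and without replicate 2 of unheated wild type, replicate 1 of heated wild type or replicate 1 of the unheated knockout, 1 without the other library of either wild type group and 5 with library size alone. KAR2, the Hsp70 of that compartment, rose in wild type by 0.57 and fell in the knockout by 0.29 (interaction -0.86 ± 0.16). Iron genes gave 2 higher and 5 lower of 20, and purine genes 2 higher and 1 lower of 15. Both higher counts, and the lower count of purines, were smaller shares than among all genes. The median interactions of these lists change sign with library size alone, coming to 0.05 in place of -0.06 for iron and 0.10 in place of -0.02 for purines. Small counts of these lists moved with single libraries. Without replicate 1 of the heated knockout the lower count was 4 for antioxidant enzymes, 5 for cell wall integrity and 5 for purines. The lower count of purines was also 3 without replicate 2 of the unheated knockout and 2 without replicate 2 of the heated knockout. The higher count of iron genes was 1 without either unheated wild type library, replicate 2 of heated wild type or replicate 2 of the unheated knockout, and 0 with DESeq2. That of ergosterol genes was 1 with any library left out but replicate 1 of unheated wild type, and 0 with DESeq2. Genes of meiosis gave 4 higher and 0 lower of 15, with 1 left under DESeq2 or without replicate 2 of heated wild type, and 2 without either unheated wild type library, replicate 1 of the unheated knockout or replicate 2 of the heated knockout. Genes specific to mating type a gave 5 lower and 0 higher of 7, and 3 lower without replicate 1 of unheated wild type, replicate 2 of heated wild type or replicate 1 of the unheated knockout and with library size alone. BAR1, the protease that degrades alpha pheromone, had -1.07 ± 0.16, and among alpha-specific genes SAG1, an adhesin, was the 1 called of 2 tested, at 0.60 ± 0.17, a call lost with DESeq2 and without replicate 2 of unheated wild type or either heated wild type library.

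Promoter elements were counted in the window from 250 bases before to 50 after the annotated start, on both strands, for 5535 tested genes. The stress core AGGGG stood in 21.8% of all these promoters, in 37.9% of those with an amplified rise and in 16.3% of those with an amplified fall. The ribosome biogenesis elements had the opposite distribution: GATGAG stood in 20.1% of all promoters, 34.1% of amplified falls and 15.2% of amplified rises, and AAATTTT in 24.1%, 41.6% and 15.0% of the same sets. Among the ribosome biogenesis genes themselves, 92.5% held GATGAG and 94.6% AAATTTT, elements this regulon is known for. The Gcn4 core TGACTC stood in 8.26% of all promoters and in 17.6% of genes that rose in the knockout and fell in wild type. In genes with the reverse pattern CACGTG stood in 7 of 78 promoters, against 166 of all 5535, and the proteasome element, searched for as GTGGCAA, in 10.3%, against 4.88%. The inverted GAA repeat showed no such contrast between classes, with 28.9% of damped rises and 22.8% of all promoters, although 63.3% of the heat shock chaperones held it. CCAGC stood in 43.8% of the daughter cell list and 22.6% of all promoters, and the G1/S element ACGCGT in 3.18% of all promoters. No letter string contains another, and a match is a description of the sequence, not of binding.

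**Figure D4:**
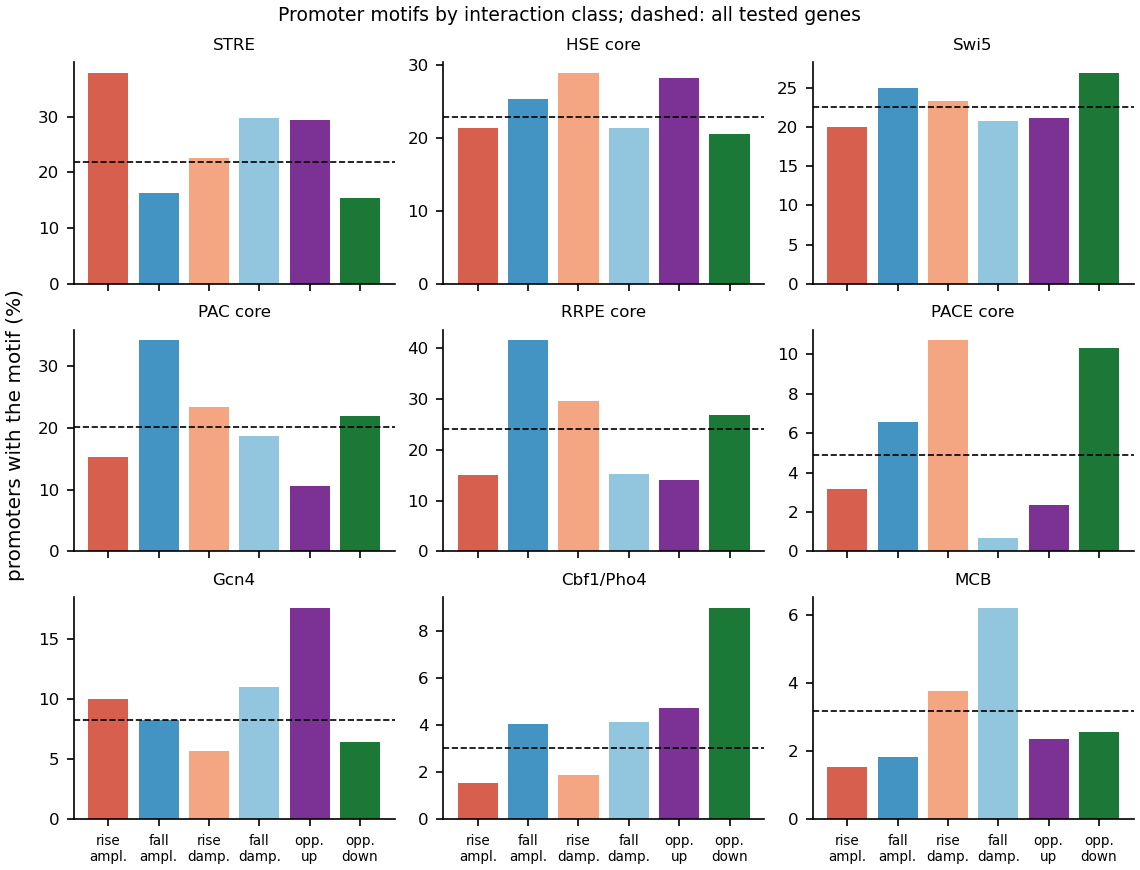
Share of promoters, in %, that hold each of 9 elements in the 6 classes of interaction genes, with the share over all tested genes as a dashed line; axes start at 0 and differ between panels. The stress element (STRE) reaches 37.9% in genes with an amplified rise against 21.8% over all, and the RRPE core reaches 41.6% in genes with an amplified fall against 24.1%.

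An interaction depends on the scale on which effects are taken to add. Computed on mean CPM instead of log2, its sign was the same in all called genes but 1. That gene was GDH1, glutamate dehydrogenase, with 163.5 and 156.1 CPM in the heated knockout, 770.8 and 687.1 CPM in the unheated knockout, 291.2 and 285.3 CPM in heated wild type and 959.1 and 921.1 CPM in unheated wild type. Its interaction was -0.48 ± 0.10 on the log2 scale and 82.6 CPM on the linear scale. The heated knockout libraries also differed in how far they departed from additivity. Replicate 2 lay further from the expectation than replicate 1 in 732 of the 929 higher genes and in 781 of the 971 lower ones.

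**Figure D5:**
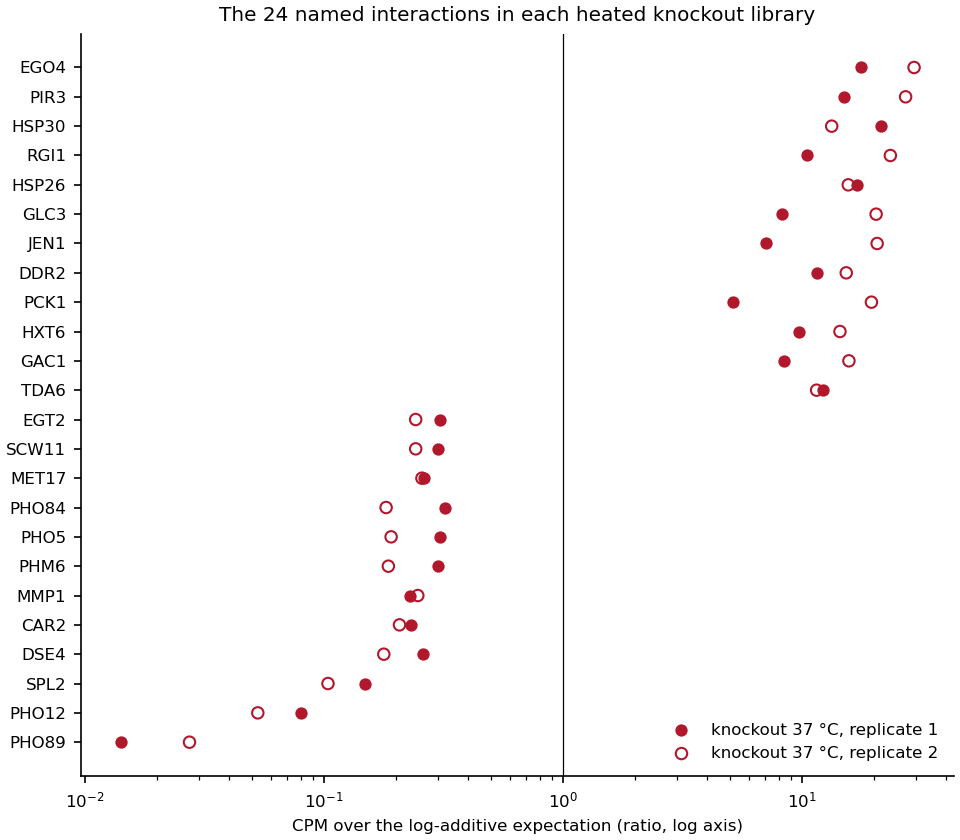
Ratio of the CPM in each heated knockout library to the level additive log2 effects would give, on a log axis, for the 12 most positive and 12 most negative interactions named. Filled points are replicate 1 and open points replicate 2; all lie on 1 side of the line at 1 for their gene, as their choice by the same libraries favours, from 29.4 times the expectation for EGO4 in replicate 2 down to PHO89, whose libraries lie lowest.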

How the data were processed

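The 8 yeast RNA libraries came in pairs, 2 each from RAD27 knockout cells at 37 °C, RAD27 knockout cells at 30 °C, wild type at 37 °C and wild type at 30 °C. The authors deposited raw counts of reads for each gene. The submitters' processing notes list STAR and HTSeq with the R64 and sacCer3 builds, and give neither versions nor how strand and multiply mapped reads were treated. Systematic names matched the R64 annotation for 6008 of 6692 genes, the other 684 holding 0.164% of counts, and 224 genes were at 0 in all libraries. Library totals of 4734266 to 5588983 make 3 counts worth 0.537 to 0.634 CPM before TMM scaling, and such limits cover counting error only.

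Counts were tested with edgeR 4.0.16 in R 4.3.3 (quasi-likelihood F test, TMM, filterByExpr by group, all 8 libraries, 1 coefficient per group). The filter asked for a minimum count of 10, scaled to library size, and 15 counts in total. The minimum count had to be met only in as many libraries as the smallest group holds, so a gene could pass through 1 group alone. Benjamini-Hochberg adjustment ran over 5667 genes with a threshold of 0.05, and the SE is the absolute log2 value over the square root of F. Biological variation came to a coefficient of 5.34%, on 4 residual and a median of 8.66 prior degrees of freedom. The spread is shared by all groups. Whether replicates came from separate cultures is not stated, so p measures the spread between these samples, which may be technical.

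A gene past the interaction threshold was sorted by its temperature responses from the same fit. A response is amplified where the knockout's was called and larger, damped where the wild type's was called and larger, and opposite where both were called with opposite signs. The additive expectation is mean CPM of the unheated knockout times heated over unheated wild type. The 33 gene lists, the members and the comparisons were chosen with earlier results of these data known, and lists are described by counts and medians. Named genes are, among called genes averaging 10 CPM or more, the 12 most positive and 12 most negative interactions, the 5 strongest in each opposite and each damped class, up to 4 members of each list, those with a sign that depends on scale, and RAD27 with 8 fixed genes. Some genes that this rule names are not reported here. Levels of different genes are not compared, since CPM is not scaled by length.

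Promoters were read from the RefSeq R64 genome from 250 bases before to 50 after the annotated start, and a window of the 250 bases alone was the alternative. The printed windows were chosen after values were seen. Copies count as near-identical where blastn 2.17.0 aligned 50% of the length or more with 95% identity or more. Other settings tried were scaling by library size alone, median-of-ratios factors, TMM leaving out ribosomal protein genes, no filter, at least 5 CPM in 2 libraries, the older quasi-likelihood form, limma-voom 3.58.1 with and without group weights, DESeq2 1.42.0, a test against a 1.5-fold interaction, replicate blocks, each library left out and the linear scale. The fits were tested on simulated data. Python 3.11.15, pandas 2.3.3 and matplotlib 3.10.9 made the tables and figures.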

Additional observations from a re-analysis of the deposited data

Results flagged for a closer look

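The temperature response differed between the genotypes by the interaction test itself in 929 genes with the higher response in the knockout and 971 with the lower one, and each of these genes meets the same criterion. Singled out by the naming rule are the genes whose responses were called with opposite signs and were large in both genotypes. In those that rose in the knockout and fell in wild type the log2 interaction was 4.11 for HSP30, 3.56 for TDA6, 3.22 for ARG3, 3.13 for FMP48 and 2.08 for PRM4. In those that fell in the knockout and rose in wild type it was -5.55 for PHO89, -2.98 for SPL2, -2.03 for PHM6, -2.01 for PHO5 and -1.89 for SCW11. In each of these 10 genes the interaction kept its sign and passed the threshold in 20 of 20 other settings. The choice of these 10 genes by the same libraries favours that outcome. No group held enough libraries for a test of outlying samples.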

How the results depend on the processing

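With median-of-ratios factors, TMM without ribosomal protein genes, both other filters, the older quasi-likelihood form, limma-voom with or without group weights and both replicate blocks, every count of genes and of classes kept within 1.5 times its value. With library size alone 604 genes were lower and 330 were amplified falls. DESeq2 called 1359 genes, 1335 of them among the 1900, with 559 higher, 399 amplified rises, 97 damped falls and 47 reversals upward in the knockout. A test against a 1.5-fold interaction called 212 genes higher and 73 lower, 205 of them at least 2-fold higher, with 163 amplified rises, 44 amplified falls, 10 damped rises, 18 damped falls and 2 reversals each way. The cause of these differences was not tested, apart from the stricter null of the 1.5-fold test. With 1 library left out, and the lone library of its group assumed to vary like the others, 1339 to 2388 genes were called. Damped rises then ran between 73 and 190, damped falls between 92 and 168, reversals upward in the knockout between 46 and 132, reversals downward between 32 and 147 and genes at least 2-fold lower between 57 and 100. Among named genes with a called interaction GDH1 alone changed sign, to 82.6 CPM on the linear scale. Whether samples with the same replicate number shared a culture is not stated. Deviations of same-numbered libraries correlated between -0.111 and 0.114 across genes, the highest value being that of the heated and unheated knockout. Weak correlations cannot show that the samples were unpaired. A replicate block over all groups called 1972 genes, 1880 of them shared, and a block within genotype 2120, 1891 of them shared, and neither changed the call of a named gene. Depth limits genes near 3 counts, and the 250 base window alone was tried for the promoter shares.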
